A study of Homo sapiens with 8 samples.

Results

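The genes examined here encode the cadherins, catenins and plaque proteins that join epithelial cells to one another: *CDH1*, *CDH3*, *CTNNA1*, *CTNND1*, *JUP*, *DSP*, *DSC2*, *DSG2*, *PKP2* and *PKP3*. These 10 genes were chosen by name, as 10 of the 20030 gene rows of each library, and all 10 passed the filter on low values. Their levels came from bulk RNA-seq of HCT-116, an established human colorectal cancer cell line, after transient transfection of siRNA. The control siRNA (siNC) had 2 libraries, siRNAs against *HHEX* (siHHEX) had 3, siRNAs against *YAP1* and *WWTR1* together (siYAP/TAZ) had 2, and a mixture against *TEAD1*, *TEAD2*, *TEAD3* and *TEAD4* (siTEAD1/2/3/4) had 1. The study's methods list 3 siRNAs against *HHEX* and 2 pairs against *YAP1* and *WWTR1*, as many as there are libraries, so the spread within a knockdown may also hold the difference between siRNAs. HHEX is a homeodomain transcription factor, YAP and TAZ (the product of *WWTR1*) are the coactivators at the end of the Hippo pathway, and the TEAD proteins are the transcription factors through which they act. The labels do not say whether libraries of a condition came from separate cultures. The p-values measure only the spread between these libraries, which for siNC may be technical.

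In the adherens junction, classical cadherins bind each other between neighbouring cells and hold p120 catenin and either β-catenin or plakoglobin on their cytoplasmic tails, and α-catenin links the complex to actin. In the desmosome, the desmosomal cadherins (desmocollins and desmogleins) bind plakoglobin and plakophilins, and desmoplakin ties this plaque to keratin filaments. Simple epithelia such as the intestinal lining mainly use *DSC2* and *DSG2*, while the other desmosomal cadherins are typical of stratified squamous epithelia.

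Levels were in FPKM, the fragments mapped to a gene scaled by the length of its transcript and by all mapped fragments of the library. The sum over genes was lowest in siYAP/TAZ 1 (331663 FPKM) and highest in siHHEX 3 (383423 FPKM). How many reads stand behind a value is unknown, and no counting interval is given. Changes were tested by limma on the log2(FPKM + 1) scale, with the 8 libraries in a single model and the 10677 genes that reached 1 FPKM in 2 or more of them. A gene was said to rise or fall when its p, adjusted by the Benjamini-Hochberg method over those genes, was under 0.05. Fold changes on this scale understate the changes of genes with low values. In bulk RNA, a lower level in fewer cells and a lower level per cell cannot be told apart.

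The knocked down genes were lower in the libraries named for them, with exceptions among the TEAD genes. *HHEX* was at 8.60 and 9.06 FPKM in siNC and at 3.25, 3.54 and 1.85 FPKM in siHHEX 1, 2 and 3, a log2 change of -1.37 (SE 0.217, adjusted p = 0.0054 from limma). It was at 4.80 and 7.12 FPKM in siYAP/TAZ and at 7.75 FPKM in siTEAD1/2/3/4. *YAP1* was at 20.2 and 19.7 FPKM in siNC and at 6.90 and 8.39 FPKM in siYAP/TAZ (log2 change -1.28, SE 0.383, adjusted p = 0.0681 from limma). All its siYAP/TAZ values lay below siNC, but the change did not pass the adjustment. *YAP1* fell in siHHEX (log2 change -1.07, SE 0.350, adjusted p = 0.0429 from limma), to 5.77 and 6.93 FPKM in siHHEX 1 and 3 but 17.4 FPKM in siHHEX 2, and it was at 22.6 FPKM in siTEAD1/2/3/4. *WWTR1* was at 6.80 and 6.72 FPKM in siNC and fell to 2.64 and 2.58 FPKM in siYAP/TAZ (log2 change -1.10, SE 0.195, adjusted p = 0.0156 from limma). It was at 5.12, 6.12 and 8.55 FPKM in siHHEX 1, 2 and 3 and at 6.84 FPKM in siTEAD1/2/3/4.

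The siTEAD1/2/3/4 library held 9.02 FPKM of *TEAD1* and 5.56 FPKM of *TEAD4*, below the siNC values of 18.3 and 19.0 FPKM for *TEAD1* and 20.3 and 21.3 FPKM for *TEAD4*. *TEAD2* was at 2.73 FPKM there and at 4.10 and 3.47 FPKM in siNC, and *TEAD3* was at 9.08 FPKM, above its siNC values of 7.36 and 6.99 FPKM. *TEAD3* was thus not lower in the library named for its knockdown. In siHHEX 1, 2 and 3, *TEAD1* was at 6.99, 10.2 and 5.30 FPKM, *TEAD2* at 6.50, 8.02 and 7.18 FPKM, *TEAD3* at 9.42, 8.06 and 9.67 FPKM, and *TEAD4* at 17.6, 19.5 and 20.8 FPKM. In siYAP/TAZ 1 and 2, *TEAD1* was at 16.4 and 16.1 FPKM, *TEAD2* at 5.54 and 6.32 FPKM, *TEAD3* at 7.75 and 8.07 FPKM, and *TEAD4* at 12.5 and 13.6 FPKM. *TEAD1* fell in siHHEX (log2 change -1.25, adjusted p = 0.0064 from limma) and *TEAD2* rose there (0.78, adjusted p = 0.0071). *TEAD4* fell in siYAP/TAZ (-0.63, adjusted p = 0.0250 from limma). The other TEAD changes in siHHEX and siYAP/TAZ against siNC did not pass.

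Markers of epithelial cells fitted the label of the line in part. *EPCAM* was at 116 to 174 FPKM over the 8 libraries, and the keratin gene *KRT8* was the most abundant of the intestinal epithelial list in all 8, at 897 to 1757 FPKM. Its protein forms the filaments that desmoplakin holds, and it was lowest in siYAP/TAZ, at 898 and 897 FPKM against 1591 and 1707 FPKM in siNC. Of the intestinal genes, *CDX2* was at 3.86 to 6.24 FPKM, *CDX1* was listed at 0 in all 8 libraries, *CDH17*, an intestinal cadherin, did not exceed 0.0098 FPKM, and *VIL1*, which encodes villin, did not exceed 0.0335 FPKM. *CDH2*, which encodes the N-cadherin of mesenchymal cells, was listed at 0 in every library, and *VIM*, which encodes vimentin, did not exceed 1.36 FPKM.

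Both siHHEX 3 and siYAP/TAZ 2 stood apart from the other 6 libraries in markers of squamous epithelium, a list that holds several desmosome genes. The 9 markers summed to 32.1 FPKM in siHHEX 3 and to 40.7 FPKM in siYAP/TAZ 2, against 10.7 and 10.2 FPKM in siNC and at most 12.8 FPKM in the other knockdown libraries. All 9 were above both siNC libraries in each of these libraries, and 7 of the 9 were over 2 times the higher siNC value. The most abundant was *KRT10* at 12.1 FPKM in siHHEX 3 and *KRT14* at 12.3 FPKM in siYAP/TAZ 2, and *DSC1*, listed at 0 in the other 6 libraries, was at 0.0392 and 0.0249 FPKM. Of the 11 mesenchymal markers, 8 were above both siNC libraries in each of these libraries, with sums of 4.88 and 6.43 FPKM against 3.36 and 2.85 FPKM in siNC, while siTEAD1/2/3/4 had 5.53 FPKM with 5 above. Calls of the 10 genes that change without both libraries are given with and without them. Where a siYAP/TAZ or siNC library is left out, its condition has 1 library, which is assumed to vary like the other conditions, so that the p rests on their spread. The part of these markers in the results was not tested.

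Ordered by the siNC mean, *CTNNA1* was the most abundant of the genes at 48.7 ± 0.347 FPKM (SD, n = 2), followed by *PKP3* at 40.6 ± 2.21, *DSG2* at 34.4 ± 0.341, *CTNND1* at 30.8 ± 1.07 and *JUP* at 27.9 ± 0.505 FPKM. *CDH3* was at 19.0 ± 0.630, *DSP* at 17.0 ± 0.642, *CDH1* at 9.34 ± 0.253, *DSC2* at 6.38 ± 0.081 and *PKP2* at 5.27 ± 0.051 FPKM. No neighbours in this order overlapped between the siNC libraries. The median of all tested genes was 7.35 FPKM, and *DSC2* and *PKP2* were the members below it.

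**Figure D1:**
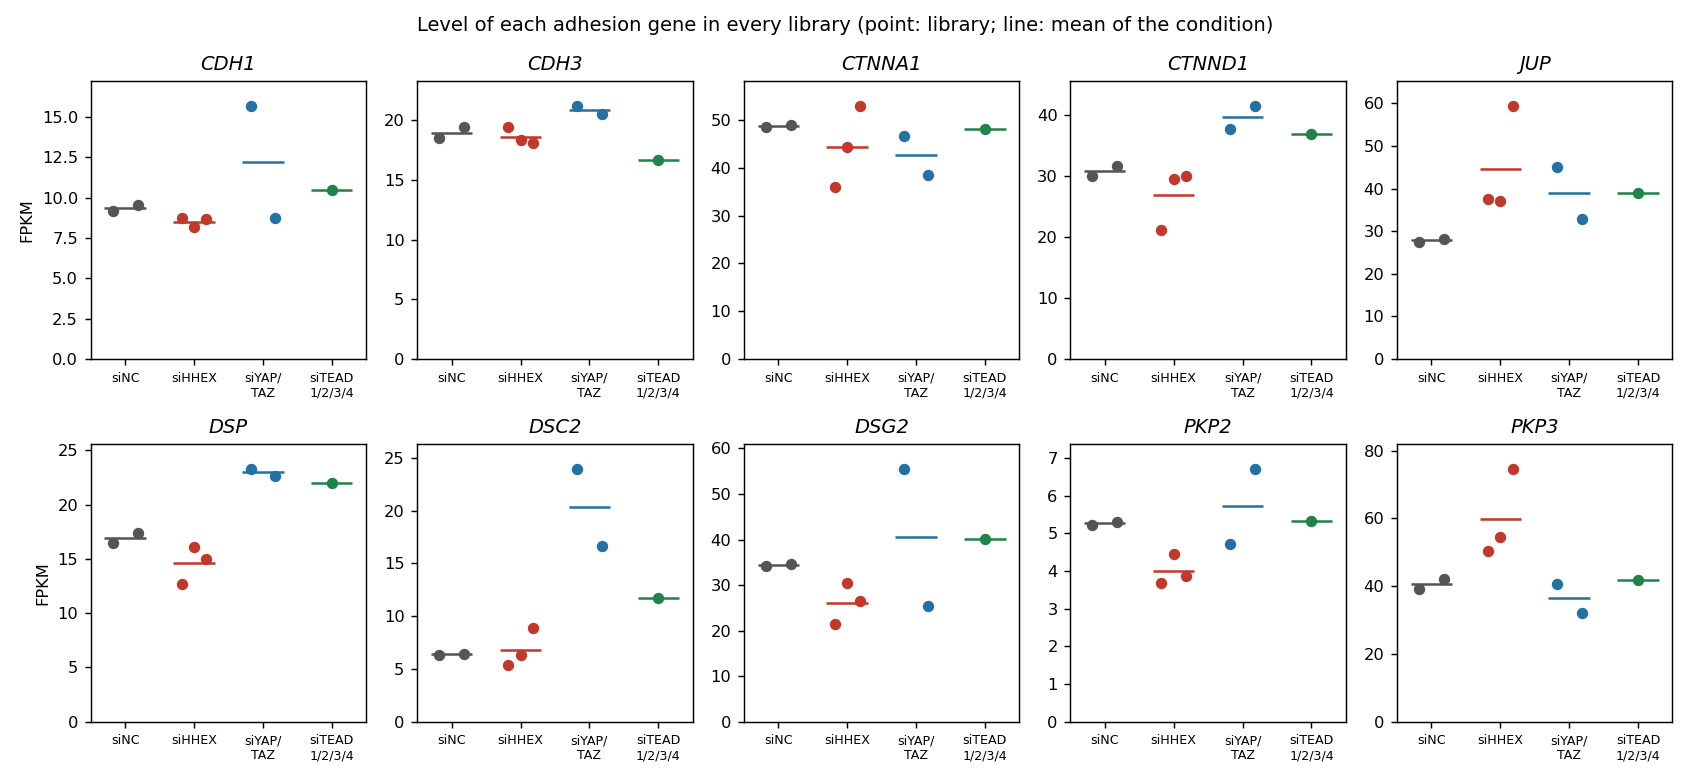
FPKM (y axis, linear from 0) of each of the 10 adhesion genes in the 8 libraries, with a point per library and a line at the mean of each condition (x axis). *DSC2* was at 24.0 and 16.7 FPKM in siYAP/TAZ, above the siNC values of 6.33 and 6.44 FPKM, while *JUP* and *PKP3* were above siNC in all 3 siHHEX libraries.

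Most of the adhesion genes did not pass the test in any knockdown against siNC. In siHHEX, 2 of the 10 rose, the plakoglobin gene *JUP* and the plakophilin gene *PKP3*, and none fell, where 16.0% of all tested genes rose and 16.9% fell. In siYAP/TAZ, 1 of the 10 rose, the desmocollin gene *DSC2*, and none fell, where 6.15% of tested genes rose and 2.13% fell. At an unadjusted p under 0.05, 2 of the 10 passed in siHHEX and 2 in siYAP/TAZ, where 47.2% and 27.3% of all tested genes did. The median log2 change of the 10 genes was -0.13 in siHHEX (all tested genes, -0.0055) and 0.22 in siYAP/TAZ (all tested genes, 0.082). In siTEAD1/2/3/4, which had no replicate and no test, 1 of the 10 was past 1.5-fold higher, again *DSC2*, and none was past 1.5-fold lower, against 4.15% and 2.18% of tested genes. The 3 comparisons share the siNC libraries.

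Counted by library, 2 of the 10 genes were above both siNC libraries in all 3 siHHEX libraries (*JUP* and *PKP3*) and 5 were below (*CDH1*, *CTNND1*, *DSP*, *DSG2* and *PKP2*), where 33.1% and 33.8% of tested genes were so. In both siYAP/TAZ libraries, 5 were above both siNC libraries (*CDH3*, *CTNND1*, *JUP*, *DSP* and *DSC2*) and 1 was below (*CTNNA1*), where 42.9% and 24.8% of tested genes were so. Such an order was thus common across the genome.

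The replicated knockdowns were also tested against each other, a difference in which the siNC levels do not enter, although siNC adds to the estimate of the spread. Of the 10 genes, 1 was higher in siHHEX than in siYAP/TAZ (*PKP3*) and 3 were lower (*CTNND1*, *DSP* and *DSC2*), where 13.5% of tested genes were higher and 25.9% were lower. Setting every library to the same median moved all changes of this comparison by 0.18 and those of siYAP/TAZ against siNC by -0.11 on the log2 scale. With that scaling, the tested genes higher in siHHEX than in siYAP/TAZ went from 34.2% to 64.4% of those called, and those higher in siYAP/TAZ than in siNC from 74.3% to 49.1%. For siHHEX against siNC the share went from 48.7% to 60.5%. Among the 10 genes the scaling took only *CTNND1* from the calls of the direct comparison (log2 change -0.38, adjusted p = 0.0710 from limma), and both comparisons against siNC kept theirs.

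**Figure D2:**
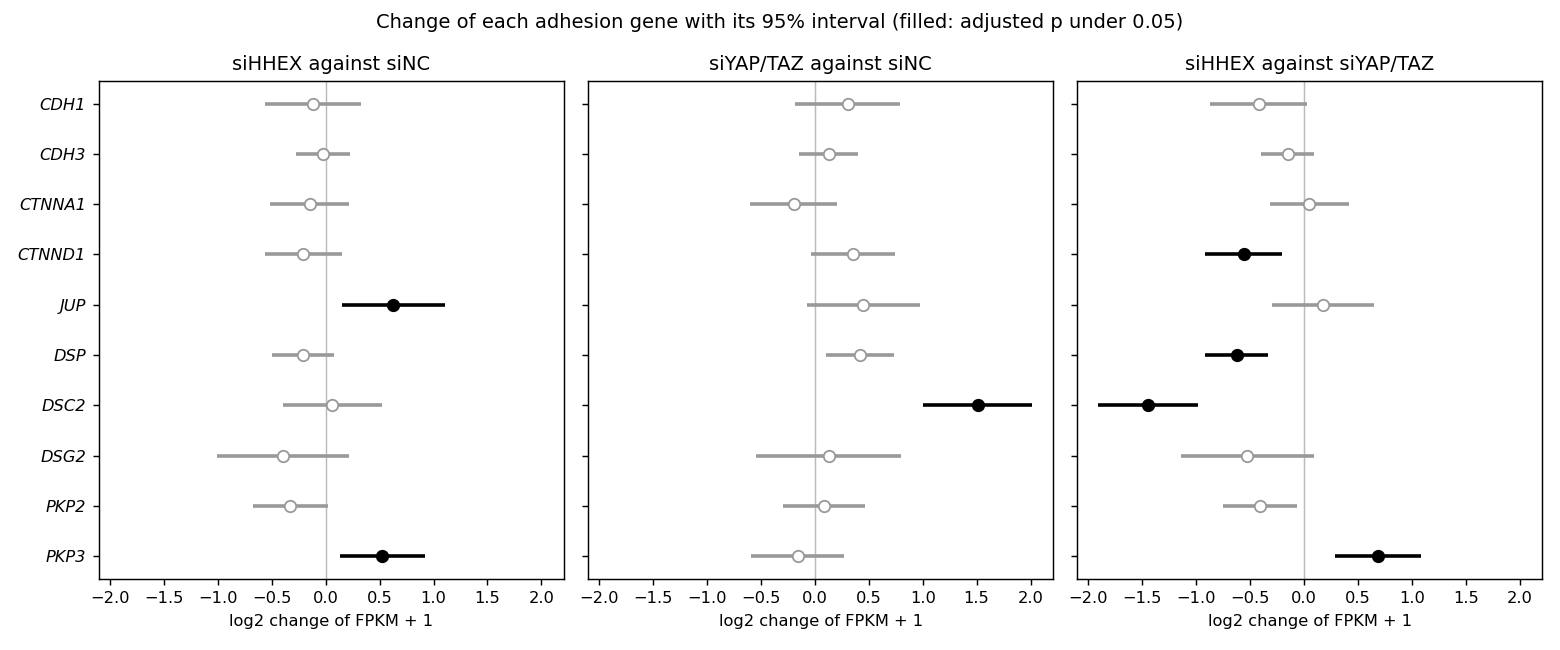
Log2 change of FPKM + 1 (x axis) with its 95% interval from limma for each gene (y axis) in the 3 tested comparisons, with filled points at an adjusted p under 0.05. The interval of *DSC2* lay above 0 in siYAP/TAZ against siNC, from 1.0 to 2.01, and below 0 in siHHEX against siYAP/TAZ.

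Of the classical cadherins, neither passed the test in any comparison. *CDH1*, which encodes E-cadherin (chr16:68737292-68835537 of GRCh38), was at 9.16 and 9.52 FPKM in siNC, at 8.74, 8.16 and 8.66 FPKM in siHHEX 1, 2 and 3, at 15.7 and 8.76 FPKM in siYAP/TAZ 1 and 2, and at 10.5 FPKM in siTEAD1/2/3/4. The siHHEX values lay narrowly below siNC, and the siYAP/TAZ values stood on either side of it. Its log2 change was -0.12 in siHHEX (95% interval -0.57 to 0.33, adjusted p = 0.650 from limma), while the siYAP/TAZ change was 0.30 (-0.19 to 0.79, adjusted p = 0.400). Without siHHEX 3 and siYAP/TAZ 2, *CDH1* was lower in siHHEX than in siYAP/TAZ 1, a single library whose spread is taken from the other conditions (log2 change -0.82, adjusted p = 0.0329 from limma), against -0.42 (adjusted p = 0.115) with all libraries and -0.81 (adjusted p = 0.0375) without siYAP/TAZ 2 alone, and in siYAP/TAZ 1 it was 0.69 above siNC on the log2 scale (adjusted p = 0.0537). With the trend described below also removed, the latter passed (0.67, adjusted p = 0.0374 from limma).

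*CDH3* encodes P-cadherin and lies 9823 bases before *CDH1* on the same strand (chr16:68636189-68727468). It was the steadiest of the 10, at 18.5 and 19.4 FPKM in siNC, 19.4, 18.4 and 18.1 FPKM in siHHEX 1, 2 and 3, 21.2 and 20.5 FPKM in siYAP/TAZ and 16.7 FPKM in siTEAD1/2/3/4. The siHHEX values overlapped siNC and the siYAP/TAZ values were slightly above. The log2 changes were -0.02 (95% interval -0.27 to 0.22) in siHHEX and 0.13 (-0.14 to 0.40) in siYAP/TAZ. The ratio of *CDH3* to *CDH1* was 2.02 and 2.04 in siNC, 2.23, 2.25 and 2.09 in siHHEX, 1.35 and 2.34 in siYAP/TAZ and 1.59 in siTEAD1/2/3/4. The low ratios of siYAP/TAZ 1 and siTEAD1/2/3/4 are those of the libraries with the most *CDH1*.

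The genes whose levels followed *CDH1* most closely over the 8 libraries, by Pearson's r on log2(FPKM + 1), were *KIAA0040* (0.971), *GAREM1* (0.952), *IL6R* (0.950), *RBM47* (0.946) and *PARP4* (0.917). Each had its highest value in siYAP/TAZ 1, as *CDH1* did, for example 3.94 FPKM of *KIAA0040* there against 1.89 to 2.60 FPKM in the other libraries. Among the adhesion genes the closest were *DSG2* (0.863) and *DSC2* (0.734), and *PKP3* was opposite in sign (-0.30). The 8 libraries include replicates of the same condition, and siYAP/TAZ 1 was the highest library for all 5 genes and for *CDH1*.

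Of the catenins that connect cadherins to actin and stabilise them at the membrane, *CTNNA1* passed in no comparison and *CTNND1* between the knockdowns. *CTNNA1*, which encodes αE-catenin (chr5:138610967-138935034), was at 48.4 and 48.9 FPKM in siNC, at 36.0, 44.4 and 52.9 FPKM in siHHEX 1, 2 and 3, at 46.8 and 38.5 FPKM in siYAP/TAZ and at 48.2 FPKM in siTEAD1/2/3/4. The siHHEX libraries spread to both sides of siNC. Its log2 change was -0.15 (95% interval -0.51 to 0.22) in siHHEX and -0.19 (-0.60 to 0.21) in siYAP/TAZ. *LRRTM2*, which lies inside *CTNNA1* on the opposite strand, was at 0.0265 FPKM in siNC 1.

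*CTNND1*, which encodes p120 catenin (chr11:57753243-57819546), was at 30.0 and 31.5 FPKM in siNC, 21.1, 29.4 and 30.0 FPKM in siHHEX 1, 2 and 3, 37.7 and 41.4 FPKM in siYAP/TAZ and 36.9 FPKM in siTEAD1/2/3/4. The siHHEX values were below siNC, narrowly in siHHEX 3, and none reached a siYAP/TAZ value. Against siNC its log2 changes of -0.21 in siHHEX and 0.35 in siYAP/TAZ did not pass (adjusted p = 0.315 and 0.226 from limma). Between the knockdowns it was lower in siHHEX, by a log2 change of -0.56 (SE 0.159, adjusted p = 0.0226 from limma), or -0.33 (adjusted p = 0.185) with the trend of each library on GC content and length removed. The call was also lost without siYAP/TAZ 1 (-0.63, adjusted p = 0.0580 from limma) and without siYAP/TAZ 2 (-0.50, adjusted p = 0.132), and without both siHHEX 3 and siYAP/TAZ 2 the difference was -0.58 (adjusted p = 0.0898). The ratio of *CTNND1* to *CTNNA1* was 0.620 and 0.645 in siNC, 0.586, 0.663 and 0.567 in siHHEX, 0.807 and 1.08 in siYAP/TAZ and 0.764 in siTEAD1/2/3/4.

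*JUP* encodes plakoglobin (chr17:41754604-41786931), the catenin that both junctions share. It was at 27.5 and 28.2 FPKM in siNC, at 37.5, 37.1 and 59.3 FPKM in siHHEX 1, 2 and 3, at 45.0 and 32.8 FPKM in siYAP/TAZ and at 39.0 FPKM in siTEAD1/2/3/4. Every knockdown library was above both siNC libraries, and siHHEX 3 was the highest. In siHHEX *JUP* rose by 0.63 on the log2 scale (SE 0.212, adjusted p = 0.0481 from limma), to 1.60 times the siNC mean in FPKM. This call was near the threshold, and over 17 other settings of the analysis it was kept in 7 and lost in 10, with adjusted p between 0.0273 and 0.599. Leaving out siHHEX 3 (log2 change 0.41, adjusted p = 0.0835 from limma), siHHEX 1 (0.73, adjusted p = 0.0600), siNC 1 (0.61, adjusted p = 0.207) or siNC 2 (0.64, adjusted p = 0.170) ended the call. Without siHHEX 3 and siYAP/TAZ 2 together the change was 0.41 with an adjusted p of 0.0273 from limma. With the trend on GC content and length, described further on, removed from each library it was 0.31 (adjusted p = 0.302 from limma). The siYAP/TAZ change was 0.45 (95% interval -0.07 to 0.97, adjusted p = 0.242 from limma), and it was 0.67 (adjusted p = 0.0436) without siHHEX 3 and siYAP/TAZ 2, where siYAP/TAZ 1 stood alone and the spread came from the other conditions.

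β-catenin, encoded by *CTNNB1*, takes the place of plakoglobin on classical cadherins and is the coactivator of Wnt signalling. *CTNNB1* was at 79.4 and 77.2 FPKM in siNC, 62.4, 73.3 and 66.5 FPKM in siHHEX 1, 2 and 3, 83.5 and 94.9 FPKM in siYAP/TAZ and 65.7 FPKM in siTEAD1/2/3/4. Changes of -0.22 in siHHEX and 0.18 in siYAP/TAZ did not pass (adjusted p = 0.162 and 0.379 from limma), and the difference between them did (-0.40, adjusted p = 0.0240 from limma). Without the trend on GC content and length that difference was -0.19 (adjusted p = 0.235). The ratio of *JUP* to *CTNNB1* went from 0.346 and 0.366 in siNC to 0.601, 0.505 and 0.892 in siHHEX, and it was 0.539 and 0.346 in siYAP/TAZ and 0.593 in siTEAD1/2/3/4. All siHHEX ratios were above siNC, while siYAP/TAZ 2 was level with it.

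*DSC2*, which encodes the desmocollin of simple epithelia, had the largest change against siNC of the 10 genes. It was at 6.33 and 6.44 FPKM in siNC, at 5.34, 6.33 and 8.85 FPKM in siHHEX 1, 2 and 3, at 24.0 and 16.7 FPKM in siYAP/TAZ 1 and 2, and at 11.8 FPKM in siTEAD1/2/3/4. The siYAP/TAZ values were the highest of the 8, siTEAD1/2/3/4 came next, and the siHHEX values lay on either side of siNC. In siYAP/TAZ *DSC2* rose by 1.51 on the log2 scale (SE 0.224, adjusted p = 0.0095 from limma), to 3.18 times the siNC mean. Over 17 other settings the call was kept in 14, and it was lost without the filter on low values (adjusted p = 0.0509 from limma) and without siNC 1 or siNC 2 (0.0836 and 0.0761). Leaving out a siNC library left few calls for any gene: 22 without siNC 1 and 15 without siNC 2, where 884 genes were called with both.

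In siHHEX the log2 change of *DSC2* was 0.06 (95% interval -0.40 to 0.52, adjusted p = 0.826 from limma). Its level was lower in siHHEX than in siYAP/TAZ by a log2 change of -1.45 (SE 0.205, adjusted p = 0.0041 from limma), and this difference was kept in all 17 other settings, with adjusted p between 0.0037 and 0.0440. Without siHHEX 3 and siYAP/TAZ 2 it was -1.87 (adjusted p = 0.0311 from limma). In siTEAD1/2/3/4 *DSC2* was 0.79 above the siNC mean on the log2 scale, or 1.84 times it in FPKM, with no replicate.

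*DSG2*, the desmoglein of simple epithelia, was more abundant than *DSC2* in every library, and its values were 34.2 and 34.6 FPKM in siNC, 21.5, 30.3 and 26.5 FPKM in siHHEX 1, 2 and 3, 55.5 and 25.5 FPKM in siYAP/TAZ 1 and 2, and 40.1 FPKM in siTEAD1/2/3/4. The siHHEX values were below siNC, and the siYAP/TAZ libraries parted, the first far above siNC and the second below. Its log2 changes were -0.40 in siHHEX (95% interval -1.01 to 0.22, adjusted p = 0.269 from limma), while the siYAP/TAZ change was 0.13 (-0.54 to 0.80, adjusted p = 0.822). With siYAP/TAZ 2 and siHHEX 3 left out, *DSG2* was lower in siHHEX than in siYAP/TAZ 1, again a single library with its spread taken from the other conditions (log2 change -1.09, adjusted p = 0.0356 from limma), against -0.52 (adjusted p = 0.148) with all libraries and -1.07 (adjusted p = 0.0375) without siYAP/TAZ 2 alone. The ratio of *DSC2* to *DSG2* was 0.185 and 0.186 in siNC, 0.248, 0.208 and 0.334 in siHHEX, 0.432 and 0.656 in siYAP/TAZ and 0.293 in siTEAD1/2/3/4. Every knockdown library was above siNC in this ratio, and the siYAP/TAZ libraries were the highest.

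**Figure D3:**
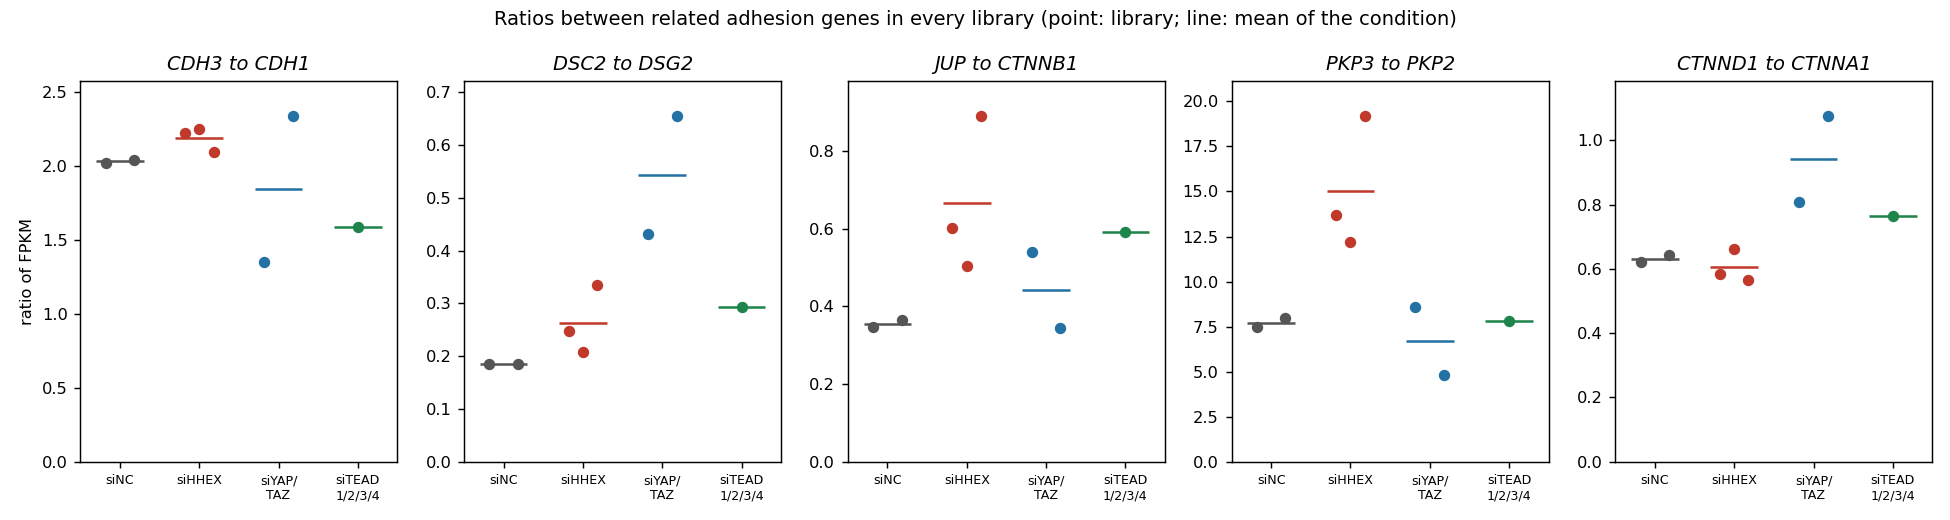
Ratio of FPKM (y axis, linear from 0) between pairs of related adhesion genes in each library, with a point per library and a line at the mean of each condition (x axis). The ratio of *DSC2* to *DSG2* was 0.185 and 0.186 in siNC and 0.432 and 0.656 in siYAP/TAZ, and that of *PKP3* to *PKP2* was highest in siHHEX.

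The desmosomal cadherin genes form a cluster on chromosome 18, in the order *DSC3*, *DSC2*, *DSC1*, *DSG1*, *DSG4*, *DSG3* and *DSG2*, the desmocollins on the minus strand and the desmogleins on the plus strand. *DSC2* lies at chr18:31058840-31102522 and *DSG2* at chr18:31498177-31549008. The proximal promoters of these neighbours, from 250 bases before to 50 bases after a start site, are shown because *DSC2* rose in siYAP/TAZ and *DSG2* did not pass the test. The sequences are from RefSeq on GRCh38.p14, at chr18:31102372-31102671 on the minus strand for *DSC2*, the first of its 2 listed promoters, and at chr18:31497927-31498226 on the plus strand for *DSG2*. Capitals mark CACCTG, an E-box of the kind bound by the SNAI and ZEB repressors of E-cadherin, or CAGGTG, the same word on the other strand.
DSC2: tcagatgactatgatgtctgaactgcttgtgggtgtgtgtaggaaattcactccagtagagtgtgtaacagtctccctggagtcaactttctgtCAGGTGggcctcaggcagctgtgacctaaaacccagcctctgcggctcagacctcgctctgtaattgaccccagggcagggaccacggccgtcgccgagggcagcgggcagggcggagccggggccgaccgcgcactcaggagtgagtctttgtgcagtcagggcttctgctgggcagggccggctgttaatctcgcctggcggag
DSG2: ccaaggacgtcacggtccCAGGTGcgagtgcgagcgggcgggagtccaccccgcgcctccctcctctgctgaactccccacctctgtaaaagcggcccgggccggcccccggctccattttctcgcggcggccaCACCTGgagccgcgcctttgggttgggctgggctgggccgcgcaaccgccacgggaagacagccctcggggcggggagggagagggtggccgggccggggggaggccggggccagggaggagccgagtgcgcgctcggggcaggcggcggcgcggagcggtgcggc
The *DSC2* promoter held 1 match and the *DSG2* promoter 2, while 20.6% of the 35116 promoters of the table held the word on either strand. RefSeq promoters were matched for 5 of the 10 genes (*CTNNA1*, *JUP*, *DSP*, *DSC2* and *DSG2*), 10 promoters in all, of which 4 held it, 1 each for *DSP*, *JUP*, *DSC2* and *DSG2*. None of the 10 held CATTCC, the core word of TEAD sites, or TAATTA, a homeodomain core, which were in 14.0% and 4.84% of all promoters (both strands). These words do not overlap one another, and a match or its lack in this window is a description of the sequence only.

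The other genes of the cluster were low. *DSC3* was at 1.51 and 1.58 FPKM in siNC, 1.19, 1.20 and 1.77 FPKM in siHHEX 1, 2 and 3, 3.59 and 2.70 FPKM in siYAP/TAZ and 2.19 FPKM in siTEAD1/2/3/4. It rose in siYAP/TAZ, by a log2 change of 0.70 (adjusted p = 0.0390 from limma), and was highest in the libraries in which its neighbour *DSC2* was highest. With the trend on GC content and length removed the change was 0.66 (adjusted p = 0.0672 from limma). *DSG1* was at 0.546 FPKM in siHHEX 3 and 1.16 FPKM in siYAP/TAZ 2 and at no more than 0.0597 FPKM in the other 6 libraries, and *DSG3* was at 0.668 and 1.12 FPKM in the same libraries and at no more than 0.109 FPKM elsewhere. *DSG4* did not exceed 0.151 FPKM. *DSC1*, *DSG1*, *DSG3* and *DSG4* did not pass the filter on low values and were not tested.

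**Figure D4:**
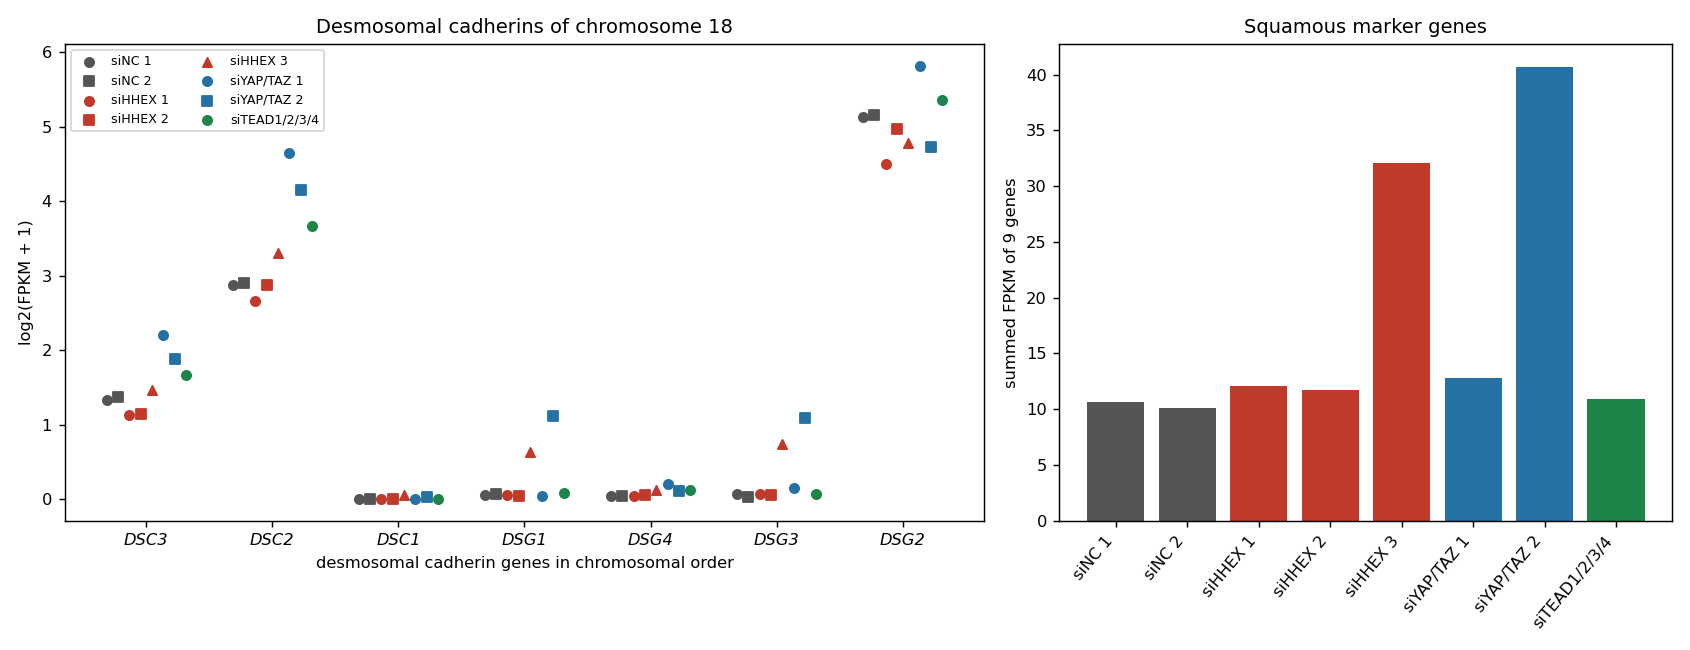
Left, log2(FPKM + 1) (y axis) of the 7 desmosomal cadherin genes in chromosomal order (x axis), with a point per library; right, summed FPKM of the 9 squamous marker genes (y axis, linear from 0) per library (x axis). *DSC2* and *DSC3* were highest in the siYAP/TAZ libraries, while *DSG1* and *DSG3* were raised in siHHEX 3 and siYAP/TAZ 2, the libraries with 32.1 and 40.7 FPKM of squamous markers.

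*DSP*, which encodes desmoplakin, the link from the desmosomal plaque to keratin (chr6:7541338-7586714), was at 16.5 and 17.4 FPKM in siNC, at 12.7, 16.1 and 15.0 FPKM in siHHEX 1, 2 and 3, at 23.3 and 22.7 FPKM in siYAP/TAZ and at 22.0 FPKM in siTEAD1/2/3/4. The siHHEX values were all below siNC and the siYAP/TAZ and siTEAD1/2/3/4 values all above. Neither change from siNC passed, at -0.21 in siHHEX (95% interval -0.50 to 0.08, adjusted p = 0.223 from limma), while the siYAP/TAZ change was 0.42 (0.10 to 0.74, adjusted p = 0.0945). The difference between the knockdowns did, at a log2 change of -0.63 (SE 0.129, adjusted p = 0.0080 from limma), and with the trend on GC content and length removed it was -0.44 (adjusted p = 0.0481). Of 17 other settings it was kept in 13, and without siHHEX 3 and siYAP/TAZ 2 it was -0.66 with an adjusted p of 0.05004 from limma, just over the threshold, as it was without siYAP/TAZ 2 alone (-0.64, adjusted p = 0.0518).

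The plakophilins bind desmoplakin and desmosomal cadherins and strengthen the plaque. *PKP3* (chr11:392614-404908) was at 39.1 and 42.2 FPKM in siNC, at 50.3, 54.4 and 74.6 FPKM in siHHEX 1, 2 and 3, at 40.7 and 32.2 FPKM in siYAP/TAZ and at 41.8 FPKM in siTEAD1/2/3/4. All siHHEX values were above every other library, with siHHEX 3 the highest. *PKP3* rose in siHHEX by 0.53 on the log2 scale (SE 0.176, adjusted p = 0.0467 from limma), to 1.47 times the siNC mean, and was higher in siHHEX than in siYAP/TAZ by 0.69 (adjusted p = 0.0164). Like *JUP* it stood near the threshold, kept against siNC in 6 of 17 other settings and lost in 11. Leaving out siHHEX 3 (0.36, adjusted p = 0.0873 from limma), siNC 1 (0.47, adjusted p = 0.239), siNC 2 (0.58, adjusted p = 0.153), siYAP/TAZ 1 or siYAP/TAZ 2 (both 0.53, adjusted p = 0.0501 and 0.0503) ended the call against siNC. The difference between the knockdowns was lost without siYAP/TAZ 2 (0.52, adjusted p = 0.128 from limma). Without siHHEX 3 and siYAP/TAZ 2 together the change against siNC was 0.36 with an adjusted p of 0.0446 from limma, and the difference between the knockdowns was 0.35 (adjusted p = 0.0959). Removal of the GC content and length trend left 0.14 against siNC (adjusted p = 0.551 from limma) and 0.31 between the knockdowns (adjusted p = 0.152).

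*PKP2* (chr12:32790745-32896798) was the least abundant of the 10 and ran the other way in siHHEX. It was at 5.23 and 5.30 FPKM in siNC, 3.68, 4.46 and 3.88 FPKM in siHHEX 1, 2 and 3, 4.73 and 6.71 FPKM in siYAP/TAZ and 5.34 FPKM in siTEAD1/2/3/4. The siHHEX values were all below siNC, but the log2 change of -0.33 did not pass (95% interval -0.67 to 0.02, adjusted p = 0.120 from limma). The siYAP/TAZ values lay on either side of siNC. Its difference between the knockdowns, -0.41 (adjusted p = 0.0569 from limma), passed without siYAP/TAZ 1 (-0.63, adjusted p = 0.0282) and without siHHEX 2 (-0.48, adjusted p = 0.0376). The ratio of *PKP3* to *PKP2* was 7.47 and 7.95 in siNC, 13.7, 12.2 and 19.2 in siHHEX, 8.60 and 4.80 in siYAP/TAZ and 7.83 in siTEAD1/2/3/4. The siHHEX ratios were all above those of the other 5 libraries.

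Both genes that rose in siHHEX have GC-rich transcripts, and GC content moved with the siHHEX libraries across the genome. The Ensembl canonical transcript of *PKP3* had 66.7% GC and that of *JUP* 61.5%, above 97.3% and 87.0% of tested genes, while the other 8 lay between 39.0% (*DSC2*) and 53.2% (*CDH3*). Across tested genes, Spearman's coefficient between GC content and the difference of a library from the siNC mean was 0.679, 0.599 and 0.755 in siHHEX 1, 2 and 3, 0.060 and -0.05 in siYAP/TAZ 1 and 2, 0.298 in siTEAD1/2/3/4, and 0.212 in siNC 2. Once the trend with GC content and length had been taken out of each library, none of the 10 genes was called in siHHEX, where 6.12% of genes were called in either direction. *JUP* and *PKP3* were then at 0.31 and 0.14, and *DSC2*, the gene with the least GC, went from 0.06 to 0.50 (adjusted p = 0.217). In siYAP/TAZ 1 of the 10 was called, again *DSC2* at 1.42 (adjusted p = 0.0137 from limma), where 12.5% were called. Between the knockdowns 2 were called, *DSC2* at -0.93 (adjusted p = 0.0440) and *DSP* at -0.44, where 8.85% were called. Whether the trend is technical was not tested.

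**Figure D5:**
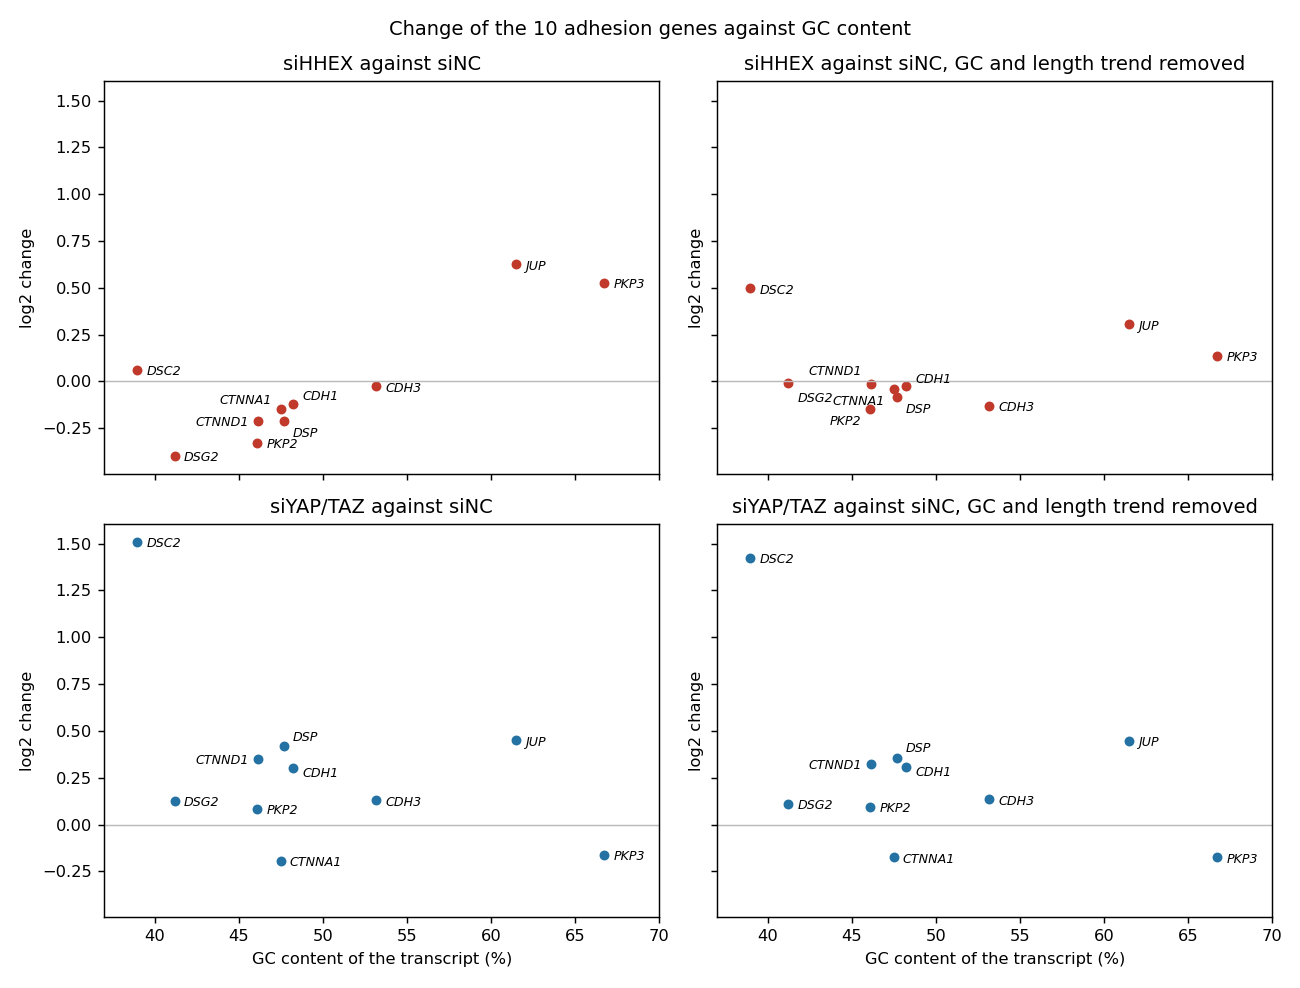
Log2 change against siNC (y axis) of the 10 adhesion genes by the GC content of their transcript in percent (x axis), for siHHEX (top) and siYAP/TAZ (bottom), as measured (left) and with the trend on GC content and length removed (right). In siHHEX *JUP* and *PKP3* stood apart at 0.63 and 0.53 before the removal and were at 0.31 and 0.14 after it, while *DSC2* in siYAP/TAZ was at 1.51 and 1.42.

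The other partners of the adherens junction were given by a list of 14 genes, of which 11 were tested. In siHHEX 2 rose and 2 fell, and in siYAP/TAZ 2 rose and 1 fell, with median log2 changes of -0.22 and 0.18. For this and the following lists the background is that given above: of all tested genes 16.0% rose and 16.9% fell in siHHEX (median -0.0055), and 6.15% rose and 2.13% fell in siYAP/TAZ (median 0.082). *VCL*, which encodes vinculin, an actin linker at α-catenin, was at 32.7 and 31.5 FPKM in siNC, 10.1, 18.6 and 16.7 FPKM in siHHEX, 25.3 and 19.0 FPKM in siYAP/TAZ and 27.7 FPKM in siTEAD1/2/3/4. It fell in siHHEX by 1.08 on the log2 scale (adjusted p = 0.0113 from limma), and with the trend on GC content and length removed the change was -1.02 (adjusted p = 0.0355). All knockdown libraries were below siNC.

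*CTNNAL1*, which encodes a relative of α-catenin, was at 58.8 and 54.9 FPKM in siNC and at 29.3, 29.6 and 34.9 FPKM in siHHEX, 31.0 and 29.0 FPKM in siYAP/TAZ and 35.8 FPKM in siTEAD1/2/3/4. All knockdown libraries were below siNC, and it fell in siHHEX (log2 change -0.85) and siYAP/TAZ (-0.90, adjusted p = 0.0044 and 0.0094 from limma). *ARVCF*, a p120 family catenin gene, rose in both, by 0.55 and 0.59, from 1.03 and 1.28 FPKM in siNC to 1.88 to 2.44 FPKM. The nectin gene *NECTIN1* rose in siHHEX by 0.66 (adjusted p = 0.0280 from limma) and *NECTIN4* in siYAP/TAZ by 0.84 (adjusted p = 0.0390). *NECTIN4* was low, at 0.7334 and 0.411 FPKM in siNC and 1.63 and 1.972 FPKM in siYAP/TAZ. It was at 0.5706, 1.396 and 0.862 FPKM in siHHEX and 0.6807 FPKM in siTEAD1/2/3/4. Outside siYAP/TAZ only siHHEX 2 reached 1 FPKM, so *NECTIN4* was tested only because it was high in siYAP/TAZ. Its calls, counted here in siYAP/TAZ and between the knockdowns, are not independent of that selection. In siYAP/TAZ *NECTIN1* was at 0.70 (adjusted p = 0.0648 from limma), and its difference between the knockdowns was -0.04 (adjusted p = 0.861). With the trend removed, *VCL* alone of these was called in siHHEX, and *CTNNAL1*, *ARVCF*, *NECTIN1* and *NECTIN4* were called in siYAP/TAZ. *CTNNAL1*, *ARVCF* and *NECTIN1* were then at -0.53, 0.21 and 0.39 in siHHEX (adjusted p = 0.0528, 0.265 and 0.154 from limma). Between the knockdowns 4 were lower in siHHEX, *CTNNB1*, *AFDN*, *NECTIN4* and *EPB41L5*, and none with the trend removed or without siHHEX 3 and siYAP/TAZ 2. Their differences, in that order, were -0.40, -0.62, -0.55 and -0.55 on the log2 scale, and -0.30, -0.52, -0.44 and -0.26 without both libraries (adjusted p between 0.0583 and 0.303 from limma). Of all tested genes 25.9% were lower in siHHEX, 8.85% were called in either direction with the trend removed, and 1290 genes were called without both libraries. Without those libraries the 4 calls in siHHEX stood, where 2914 of all tested genes were called against siNC. In siYAP/TAZ 1 alone, *CTNNAL1* and *NECTIN1* were at -0.85 and 1.015 against siNC, and *ARVCF* and *NECTIN4* at 0.61 and 0.75. These changes rest on 1 siYAP/TAZ library and do not show that the calls in siYAP/TAZ stand.

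Among 23 other cadherin genes, 7 were tested, and 4 were listed at 0 in all libraries. The median log2 change of the tested ones was 0.13 in siHHEX and 0.28 in siYAP/TAZ. *FAT1*, an atypical cadherin and the most abundant of them, was at 42.1 and 48.1 FPKM in siNC, 26.7, 36.1 and 28.2 FPKM in siHHEX, 69.4 and 64.5 FPKM in siYAP/TAZ and 61.4 FPKM in siTEAD1/2/3/4. Levels were below siNC in all siHHEX libraries and above it in the others. It fell in siHHEX by 0.57 on the log2 scale (adjusted p = 0.0200 from limma), and the difference between the knockdowns was -1.13 (adjusted p = 0.0040), or -0.86 (adjusted p = 0.0123) with the trend removed. In siYAP/TAZ no gene of the list passed in limma, and 3 had an unadjusted p under 0.05. With the trend removed the change in siHHEX did not pass (-0.40, adjusted p = 0.0861 from limma), and neither did it without siHHEX 3 and siYAP/TAZ 2 (-0.52, adjusted p = 0.0530). There *CLSTN1* was the gene of the list called in siHHEX (0.35, adjusted p = 0.0410 from limma), where 2914 of all tested genes were called. Without both libraries the difference of *FAT1* between the knockdowns was -1.13 (adjusted p = 0.0340 from limma).

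Of 10 other desmosome genes, 5 were tested. None passed in siHHEX in limma, where 1 had an unadjusted p under 0.05, and 2 rose in siYAP/TAZ, *DSC3* and *PERP*. The medians were 0.012 and 0.30. *PERP*, which encodes a membrane protein of desmosomes and a p53 target, was at 26.2 and 25.6 FPKM in siNC, 27.5, 35.9 and 36.5 FPKM in siHHEX, 67.7 and 50.4 FPKM in siYAP/TAZ and 40.5 FPKM in siTEAD1/2/3/4. Every knockdown library was above siNC and the siYAP/TAZ libraries were the highest, as for *DSC2*. It rose in siYAP/TAZ by 1.14 on the log2 scale (adjusted p = 0.0110 from limma), and the change was 1.15 with the trend removed. In siHHEX its change was 0.34 (adjusted p = 0.132 from limma), and 0.73 (adjusted p = 0.0431) with the trend removed. Between the knockdowns *DSC3* and *PERP* were lower in siHHEX, both by a log2 difference of -0.80 (adjusted p = 0.0068 and 0.0079 from limma), where 25.9% of tested genes were lower. They remained called without siHHEX 3 and siYAP/TAZ 2, and with the trend removed the plakin gene *PPL* was called in their place (-0.64, adjusted p = 0.0415).

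Regulators of the epithelial state were a list of 17 genes, of which 9 were tested, with medians of -0.012 in siHHEX and 0.36 in siYAP/TAZ. Only *TCF3*, which encodes an E-box factor, rose in siHHEX, from 14.0 and 14.2 FPKM to 19.1, 27.8 and 26.4 FPKM (log2 change 0.73, adjusted p = 0.0121 from limma), and with the trend removed it did not pass (0.43, adjusted p = 0.127). In siYAP/TAZ 2 rose, both epithelial factors. *GRHL2*, a transcription factor that activates *CDH1*, went from 2.40 and 2.18 FPKM in siNC to 4.70 and 4.23 FPKM, a log2 change of 0.73 (adjusted p = 0.0172 from limma), and was at 3.36, 2.93 and 3.17 FPKM in siHHEX. *ESRP1*, an epithelial splicing factor, went from 21.0 and 21.7 FPKM to 32.6 and 30.7 FPKM (log2 change 0.55, adjusted p = 0.0372 from limma), and was at 30.3 FPKM in siTEAD1/2/3/4. Both were also called in siYAP/TAZ with the trend removed, as was *GRHL1* (0.50, adjusted p = 0.0422 from limma), and *GRHL2* alone without siHHEX 3 and siYAP/TAZ 2 (0.79, adjusted p = 0.0494, with 1 siYAP/TAZ library), where *ESRP1* was at 0.59 (adjusted p = 0.0650). Between the knockdowns *GRHL1* (-0.51), *GRHL2* (-0.40) and *ESRP1* (-0.56) were lower in siHHEX (adjusted p = 0.0176, 0.0310 and 0.0089 from limma). With the trend removed none was called, with *GRHL2* at -0.36 and *ESRP1* at -0.26 (adjusted p = 0.0687 and 0.202 from limma). Without both libraries, against siYAP/TAZ 1 alone, the differences of *GRHL1*, *GRHL2* and *ESRP1* were -0.45, -0.46 and -0.66. These differences rest on 1 siYAP/TAZ library and do not show that the calls between the knockdowns stand.

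Genes of cadherin cleavage and turnover numbered 13, all tested. In siHHEX 1 rose and 6 fell, with a median log2 change of -0.31, and in siYAP/TAZ none passed in limma, where 3 had an unadjusted p under 0.05 and the median was 0.11. *ADAM10*, which encodes the protease that sheds E-cadherin, fell in siHHEX from 14.9 and 14.6 FPKM to 10.3, 7.88 and 8.90 FPKM (log2 change -0.66, adjusted p = 0.0099 from limma), and *ADAM15*, another ADAM protease gene, rose from 15.5 and 16.1 FPKM to 34.3, 29.7 and 32.5 FPKM (0.98, adjusted p = 0.0037). The E3 ligase gene *CBLL1* (log2 change -0.55), the kinase gene *YES1* (-0.60) and the scaffold gene *IQGAP1* (-0.53) also fell. Without siHHEX 3 and siYAP/TAZ 2, *ADAM15* rose and 4 fell (*ADAM10*, *ARF6*, *IQGAP1* and *RAB11A*), where 1532 of all tested genes rose and 1382 fell. *CBLL1* and *YES1* were then at -0.46 and -0.50 (adjusted p = 0.0737 and 0.0564 from limma). With the trend on GC content and length removed, *ADAM15* was the only gene of the list called in siHHEX (0.63, adjusted p = 0.0191 from limma), and *ADAM10* was at -0.19 (adjusted p = 0.492). Between the knockdowns *ADAM15* was higher in siHHEX (0.58, adjusted p = 0.0087 from limma) and *ADAM10*, *YES1*, *IQGAP1* and *RAB11A* were among those lower, where 13.5% and 25.9% of tested genes were so. Of these *IQGAP1* (-0.83) alone was called with the trend removed (-0.48, adjusted p = 0.0279 from limma), and *ADAM10* and *IQGAP1* without siHHEX 3 and siYAP/TAZ 2 (-0.97 and -0.76, adjusted p = 0.0342 and 0.0356). *RHOA*, the most abundant of the list, was at 254 and 263 FPKM in siNC and had changes of 0.01 in siHHEX and -0.19 in siYAP/TAZ (adjusted p = 0.936 and 0.242 from limma).

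In siTEAD1/2/3/4, 8 of the 10 adhesion genes were above the siNC mean, with a median log2 difference of 0.19 (all tested genes, 0.060, of which 58.9% were higher). After *DSC2* the largest differences were those of *JUP* (0.47), *DSP* (0.36) and *CTNND1* (0.25), and *CDH3* was the lowest (-0.18). From the lists of other junction genes, *NECTIN1* (0.60), *PERP* (0.62) and *SNAI3* (0.72) were past 1.5-fold higher and *CTNNAL1* (-0.65) past 1.5-fold lower. Of all tested genes, 4.15% were past 1.5-fold higher and 2.18% past 1.5-fold lower. *SNAI3* was low, at 1.95 FPKM in siTEAD1/2/3/4, and its siNC libraries lay apart, at 1.11 and 0.528 FPKM. The siTEAD1/2/3/4 values come from 1 library and have no replicate check.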

How the data were processed

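RNA of siRNA-transfected HCT-116 cells was extracted with Trizol and sequenced on an Illumina HiSeq instrument. The authors deposited, for each library, an FPKM value per gene. The submitters' processing notes name Trimmomatic 0.36, HISAT2 2.0.5, Cufflinks 2.2.1 and HTSeq 0.9.1. The genome build, the annotation and the use of strand are not given in the sources used here, and neither is any scaling beyond FPKM. The study's methods name DESeq, which needs counts and was not used. The low values of a library were not multiples of a common step, so that reads were not recovered and depth is unknown. Every per-sample column was used (0 left out). Of the rows, 27 carried date-like names and were not renamed.

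The deposited FPKM values were taken to log2(FPKM + 1), the log2 scale of every change. Tests used limma 3.58.1 in R 4.3.3 with a variance trend, 1 fit of 4 groups, two-sided, adjusted over 10677 genes. GC content and transcript length came from the GENCODE annotation of GRCh38 by symbol (99.4% of tested genes), and their trend was removed with natural splines of 4 degrees of freedom. Ratios are of FPKM. Other steps used Python 3.11.15, pandas 2.3.3 and matplotlib 3.10.9. The fit was tested on simulated data with log2 changes of 2 in 200 genes and the same spread for every gene. Those changes are larger than the ones reported for the adhesion genes. The removal of the trend was tested on simulated data with a GC trend and no true change. That simulation cannot show what the removal does to true changes.

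The genes, lists and settings were chosen with earlier results of these data known. All 10 adhesion genes and the siRNA targets are named. From each list of other junction genes, the 5 largest called changes in siHHEX or siYAP/TAZ and the most abundant gene are named, and all genes of counts of 5 or fewer. From the cleavage and turnover list, 1 result is not reported here. *CTNNB1*, *CDH2*, *CDH17* and the desmosomal cadherins are always named, as are the 5 genes most like *CDH1*. Lists were described by counts and medians, with no set test. Endothelial and leukocyte markers were also read, and summed to at most 0.221 and 7.35 FPKM, the latter nearly all *CD68*.

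Alternatives were a pseudocount of 0.1, no filter, equal library medians, removal of the GC content and length trend, fits of the compared groups alone, a block for the replicate number, no variance trend, other fold cutoffs and leaving out each library. Leaving out siHHEX 3 and siYAP/TAZ 2 together was added after their squamous markers were seen.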

Additional observations from a re-analysis of the deposited data

Results flagged for a closer look

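The summed FPKM of the 9 squamous markers (*KRT5*, *KRT14*, *KRT1*, *KRT10*, *DSG1*, *DSG3*, *DSC1*, *DSC3* and *PKP1*) was 32.1 in siHHEX 3 and 40.7 in siYAP/TAZ 2, above the 10.7 and 10.2 of the siNC libraries. Both libraries were part of the fit behind the tested comparisons of the adhesion genes, and the list holds 5 other desmosome genes. *KRT14* was at 10.1 FPKM in siHHEX 3 and 12.3 FPKM in siYAP/TAZ 2 against 0.661 and 0.875 FPKM in siNC, and *KRT5* was at 4.03 and 10.5 FPKM against 0.478 and 0.390 FPKM. The part of this signal in the changes of the adhesion genes was not tested. Without both libraries, which leaves 1 siYAP/TAZ library with the spread of the other conditions, *DSC2* was still called in siYAP/TAZ and between the knockdowns. *JUP* and *PKP3* were still called in siHHEX, with log2 changes of 0.41 in place of 0.63 and 0.36 in place of 0.53. Of all tested genes, 2914 were called there. *CDH1* (-0.82) and *DSG2* (-1.09) between the knockdowns and *JUP* in siYAP/TAZ (0.67) were called in addition (adjusted p = 0.0329, 0.0356 and 0.0436 from limma). The calls of *CTNND1*, *DSP* and *PKP3* between the knockdowns were lost (adjusted p = 0.0898, 0.05004 and 0.0959 from limma). The changes of *CTNND1* and *DSP* were as large as before (-0.58 against -0.56 and -0.66 against -0.63), and that of *PKP3* was smaller (0.35 against 0.69). With the trend on GC content and length also removed, the calls of *JUP* and *PKP3* in siHHEX were lost (adjusted p = 0.341 and 0.812).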

How the results depend on the processing

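Over the settings tried, 473 log2 changes of the adhesion genes kept their direction and their side of the threshold or moved little, 42 lost a call, 10 gained one, and 28 in the tested comparisons changed sign, none of them a called value. Of the siTEAD1/2/3/4 values, which have no test, 17 moved. The count of 2 in siHHEX became 0 with no filter, without the variance trend, with the GC content and length trend removed (also without siHHEX 3 and siYAP/TAZ 2) and under the study's rule of a fold over 2, and leaving out a library gave 0 to 2. These counts stand against 3518 genes called among all tested in siHHEX, 1907 with no filter, 3489 without the variance trend, 650 with the trend removed, and 19 and 27 without siNC 1 and siNC 2, where hardly any gene was called. The count of 1 in siYAP/TAZ became 0 with no filter, 2 with only the groups compared (*DSC2* and *DSP*), 2 without siHHEX 3 and siYAP/TAZ 2, 3 with the trend also removed, and 0 to 1 on leaving out a library. Among all tested genes 884 were called there, 320 with no filter, 1759 with only the groups compared, 298 without both libraries, 512 with the trend also removed, and 15 to 1317 on leaving out a library (22 and 15 without siNC 1 and siNC 2, 92 without siYAP/TAZ 2). The count of 4 between the knockdowns became 2 with no filter, 2 with the trend removed, 1 with it removed and both libraries out, 1 at a fold over 2, and 3 to 5 on leaving out a library, where 4200 genes were called in all, 3367 with no filter, 939 with the trend removed, 133 with both libraries also out, and 1026 (without siYAP/TAZ 2) to 5161 on leaving out a library. In siTEAD1/2/3/4 the count of 1 became 3 at the smaller fold tried (*DSC2*, *DSP* and *JUP*) and 0 at a fold of 2. For these folds, and for the study's rule of a fold over 2, no share of all tested genes is given. The counts under them therefore have no background to be set against.

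Libraries with the same replicate number did not deviate together (r from -0.07 to 0.022), so the numbers share only a number. With the replicate block, which leaves out siTEAD1/2/3/4 and in which siHHEX 3, alone in its block, adds nothing to the changes (they equal those without siHHEX 3), 0 of the 10 genes were called in siHHEX, 1 in siYAP/TAZ and 4 between the knockdowns, and with the trend also removed 0, 1 and 1. Genes called among all tested went from 3518, 884 and 4200 to 2062, 1031 and 2937, and to 155, 1179 and 274 with the trend also removed.

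The values that changed sign in the tested comparisons are given with their range on leaving out a library, where that turned them. Against siNC, *CDH1* in siYAP/TAZ ranged from -0.083 to 0.69, *DSG2* there from -0.42 to 0.67, *CDH3* in siHHEX from -0.057 to 0.0076 (0.046 with equal medians), and *DSC2* in siHHEX from -0.12 to 0.20 (-0.12 with the replicate block and with both libraries out). *PKP2* in siYAP/TAZ ranged from -0.13 to 0.30 and was -0.020 with equal medians and -0.13 with both libraries out, with or without the trend, and *PKP3* there ranged from -0.32 to 0.0038 (0.0038 with both out). Between the knockdowns, *CDH3* was 0.023 with equal medians, and *DSG2* ranged from -1.07 to 0.023. *CTNNA1* ranged from -0.090 to 0.19 and was -0.084 with the replicate block, -0.0098 with the trend also removed, -0.22 with both libraries out and -0.14 with the trend also removed. *JUP* ranged from -0.048 to 0.40 and was -0.14 with the trend removed, -0.043 with the replicate block, -0.30 with both, -0.27 with both libraries out and -0.50 with the trend also removed. In siTEAD1/2/3/4, *CTNNA1* was 0.027 and *PKP3* -0.097 with the trend removed, *PKP2* was -0.046 and *PKP3* -0.020 with equal medians, and *PKP3* was -0.013 without siNC 1. The causes were not tested.

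Depth is unknown, 2 or 3 libraries in each replicated condition give wide intervals, and siTEAD1/2/3/4 has 1 library.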
